A study of Homo sapiens with 6 samples.

Results

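The 10 genes described here encode alpha and beta tubulins, the subunits of microtubules. They were taken by gene symbol: 4 alpha genes (TUBA1A, TUBA1B, TUBA1C and TUBA4A) and 6 beta genes (TUBB, TUBB2A, TUBB2B, TUBB3, TUBB4B and TUBB6), out of 19846 genes in the table. All 10 were found, and all 10 were among the 15314 genes with enough counts to test. The libraries came from HepG2, a human liver tumour cell line, at passages 7 to 9. In the 3D group (3 samples) the cells grew in a bioreactor of interwoven hollow fibres, in EMEM and DMEM mixed in equal parts with 10% serum, with recirculation at 23.5 mL/min and fresh medium fed at 2 mL/hour. In the 2D group (3 samples) the cells grew in 6-well plates in EMEM that was changed every 2 days. Both cultures were kept at 37 °C and 5% CO2, which the bioreactor received as a gas flow of 200 mL/min. Culture form, medium, feeding and gas supply differed together, so their parts in any difference cannot be told apart.

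Microtubules are hollow polymers of alpha and beta tubulin dimers. They build the mitotic spindle, carry vesicles and organelles, and in liver cells serve the traffic of secreted proteins and of membrane to the bile canaliculus. Humans have several genes for each subunit, called isotypes, whose products differ mostly at the acidic C-terminal tail, where enzymes add or remove glutamates and, on most alpha tubulins, the last tyrosine. Tubulin messenger RNA is also subject to autoregulation: when free dimers are plentiful, TTC5 recognises the nascent tubulin chain on the ribosome and its messenger RNA is degraded.

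How closely the isotypes resemble each other bears on every value below, since no source used here tells how reads that fit more than a single gene were assigned. The last 84 coding bases before the stop codon are shown for 4 beta members, from the GENCODE 29 principal transcripts on GRCh38. They are 5′ to 3′ in transcript direction, with capitals after the longest stretch that all 6 beta members share (14 bases).
TUBB: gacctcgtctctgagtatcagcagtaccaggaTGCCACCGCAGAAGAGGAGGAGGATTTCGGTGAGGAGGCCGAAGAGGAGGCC
TUBB2A: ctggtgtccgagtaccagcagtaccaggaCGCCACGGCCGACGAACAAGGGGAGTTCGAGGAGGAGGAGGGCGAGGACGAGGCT
TUBB2B: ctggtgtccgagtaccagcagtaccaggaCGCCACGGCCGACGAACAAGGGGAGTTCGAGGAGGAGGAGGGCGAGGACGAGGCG
TUBB3: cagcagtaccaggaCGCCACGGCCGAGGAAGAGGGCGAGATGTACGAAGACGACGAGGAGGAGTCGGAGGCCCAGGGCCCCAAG
TUBB2A and TUBB2B differed at 1 of these 84 bases. Over the whole coding part, identity was 97.2% between TUBA1A and TUBA1B, 96.8% between TUBA1B and TUBA1C and 98.2% between TUBB2A and TUBB2B, with identical runs of up to 221, 326 and 725 bases. TUBB stood further off: it was 81.0% to 84.7% identical to the other beta members, with no identical run above 35 bases. Of the 60 deposited values of the members, 2 were exactly whole (no tolerance), against 61.7% of all values in the table. The share over the table includes genes with too few counts to test. None was computed for genes with counts like those of the members, so the comparison is not like for like. Identical runs also reached 185 bases between TUBB3 and TUBB2A or TUBB2B. For TUBB4B they reached 143 bases with TUBB2A or TUBB2B and 140 with TUBB3. Values that were not whole occurred in every member, TUBB included. Values of TUBA1A, TUBA1B, TUBA1C, TUBB2A and TUBB2B are uncertain as to which copy a read came from, and those of the other members may be in part.

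In 3D culture 7 isotype genes rose and 0 fell: TUBA1A, TUBA1B, TUBA1C, TUBA4A, TUBB, TUBB3 and TUBB4B. TUBB2A, TUBB2B and TUBB6 did not pass the test. The 7 of 10 called higher and 0 of 10 called lower stand beside 19.0% and 17.6% of all genes tested (edgeR quasi-likelihood test, called at a Benjamini-Hochberg adjusted p under 0.05 over all genes tested). In the same 7 members every 3D library lay above every 2D library, as it did in 25.6% of all genes tested, and in 0 members did every 3D library lie below, as it did in 24.9% of all genes tested. The median log2 fold change of the 10 members, 3D over 2D, was 1.00, beside 0.02 over all genes tested. The 10 genes together took 0.337% to 0.411% of all counts in the 3D libraries and 0.125% to 0.197% in the 2D libraries. Total counts were 9530795 to 15897621 in 3D and 16270361 to 17943513 in 2D, and a count of 3 corresponds to at most 0.298 CPM (a count relative to the TMM adjusted total of its library), below every member's level. Bulk RNA cannot tell a larger share of cells with much tubulin RNA from more of it in each cell, and since no label tells whether replicates were grown as separate cultures, p-values measure only the spread between these samples.

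**Figure D1:**
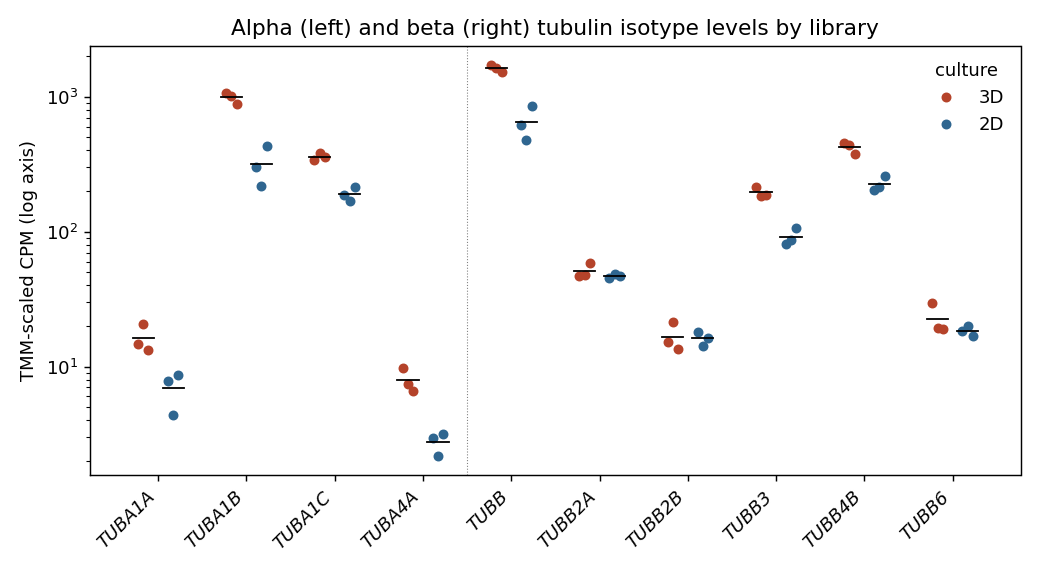
Level of each tubulin isotype gene in each library, in CPM after TMM scaling, on a log axis. Points are libraries (3D red, left; 2D blue, right), short bars are means of 3. The 3D points of TUBB, from 1532.5 to 1704 CPM, lie above its 2D points, from 478 to 856 CPM, while the points of TUBB2A, TUBB2B and TUBB6 overlap.

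TUBB (chromosome 6, 30720201 to 30725427, hg38), the main beta tubulin of dividing cells, had 1704, 1626 and 1532.5 CPM in the 3D libraries, against 616, 478 and 856 CPM in the 2D libraries. It rose 2.49-fold (log2 1.32, SE 0.19, edgeR adjusted p = 0.000522). The 3D libraries lay within 1.11-fold of each other and the 2D libraries spread 1.79-fold, so the difference exceeded the wider of these spreads.

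TUBB4B (chromosome 9, 137241213 to 137243708), a beta tubulin made in most tissues and prominent in cilia, had 454, 441 and 375 CPM in 3D, against 203, 213.5 and 258 CPM in 2D. The groups did not overlap, and the rise was 1.89-fold (log2 0.91, SE 0.14, edgeR adjusted p = 0.000574). With each library's values corrected for transcript length and GC content it was smaller, at a log2 fold change of 0.54 (edgeR adjusted p = 0.00780).

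TUBB3 (chromosome 16, 89921392 to 89938762), the isotype best known from neurons and also present in many tumours, had 216, 183 and 186 CPM in 3D, against 81.2, 87.1 and 107 CPM in 2D. It rose 2.13-fold (log2 1.09, SE 0.14, edgeR adjusted p = 0.000218), with the lowest 3D library well above the highest 2D library. The corrected log2 fold change was 0.54 (edgeR adjusted p = 0.00565), and 0.67 with the longest transcript as its length. The corrections were fitted over the 13777 tested genes with a known length and GC content, in which log2 fold changes fell with transcript length (Spearman rho −0.341, computed over genes that are no independent replicates) and increased with GC content (0.306). TUBB3 has the highest GC content of the members, 62.6% in its principal transcript. Of 10 neuron markers looked for, 6 were in the table. Their summed level was 2.25 to 3.37 CPM in 3D and 2.05 to 2.91 CPM in 2D, with SYP holding at least 1.12 CPM of it in every library. All of these markers were near 0, while TUBB3 was at 81.2 CPM or more. Of 8 hepatocyte markers, all in the table, ALB, AFP and HNF4A were at 300.1 CPM or more in every library. The lowest of the 8 was TTR, at 62.0 to 144.9 CPM in 3D and 126.5 to 155.1 CPM in 2D.

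TUBA1B (chromosome 12, 49127782 to 49131398), the alpha tubulin that most cell types make in quantity, had the largest fold change of the 10. It had 1060.5, 1016 and 883 CPM in 3D, against 303, 217 and 429 CPM in 2D, a 3.11-fold rise (log2 1.64, SE 0.22, edgeR adjusted p = 0.000420). The lowest 3D library held more than the highest 2D library by a margin larger than the spread within 3D.

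TUBA1C (chromosome 12, 49188736 to 49274604), its neighbour in the same cluster of alpha genes, had 339, 379.8 and 355 CPM in 3D, against 187, 167 and 216 CPM in 2D. It rose 1.88-fold (log2 0.91, SE 0.13, edgeR adjusted p = 0.000433). The groups did not overlap, but the rise was smaller than that of TUBA1B. Corrected for transcript length and GC content, the log2 fold change of TUBA1C was 0.68, beside 1.42 for TUBA1B. The span of TUBA1C overlaps RP11-161H23.5 by 8152 bases on the opposite strand, and how strand was treated is not known.

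The remaining alpha members were low. TUBA1A (chromosome 12, 49184796 to 49189325), the main alpha isotype of developing neurons, had 14.6, 20.8 and 13.4 CPM in 3D, against 7.76, 4.36 and 8.60 CPM in 2D. Its rise of 2.35-fold (log2 1.23, SE 0.26, edgeR adjusted p = 0.00414) was 0.98 on the log2 scale after correction for length and GC (edgeR adjusted p = 0.0197). TUBA4A (chromosome 2, 219249711 to 219278171), the alpha isotype made without the terminal tyrosine, had 9.72, 7.43 and 6.54 CPM in 3D, against 2.94, 2.18 and 3.16 CPM in 2D (2.83-fold, 95% interval 0.96 to 2.05 on the log2 scale, edgeR adjusted p = 0.000946). Both sets of libraries stood apart, at levels that rest on 93.4 to 321.9 counts a library in 3D and 36.4 to 155 in 2D. TUBA1A shares 590 bases with TUBA1C on the opposite strand and the span of TUBA4A overlaps TUBA4B and STK16, and without a statement on strand these reads cannot be told apart.

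The beta members TUBB2A, TUBB2B and TUBB6 did not pass the test. TUBB2A (chromosome 6, 3153669 to 3157527), a beta tubulin abundant in brain, had 47.1, 47.6 and 58.1 CPM in 3D, against 45.5, 48.8 and 46.5 CPM in 2D (log2 0.12, 95% interval −0.16 to 0.40, edgeR adjusted p = 0.492). Its near-copy TUBB2B (chromosome 6, 3224261 to 3231731) had 15.2, 21.3 and 13.5 CPM in 3D, against 18.1, 14.3 and 16.3 CPM in 2D (log2 0.04, 95% interval −0.38 to 0.46, edgeR adjusted p = 0.887). TUBB6 (chromosome 18, 12307669 to 12344321), a widely made beta isotype, had 29.4, 19.4 and 18.9 CPM in 3D, against 18.5, 19.8 and 16.9 CPM in 2D (log2 0.29, 95% interval −0.12 to 0.69, edgeR adjusted p = 0.246). TUBB6 overlaps AFG3L2 and TUBB2B overlaps PSMG4 on the opposite strand, with the same doubt on strand. For all 3 the groups overlapped, and TUBB6 was high in 3D replicate 1 alone, without which its log2 fold change was 0.04. The upper ends of the intervals lie below the fitted changes of TUBB3, TUBB4B and TUBB. With length and GC content corrected these log2 values turned negative, to −0.25, −0.19 and −0.20, still without a call.

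**Figure D2:**
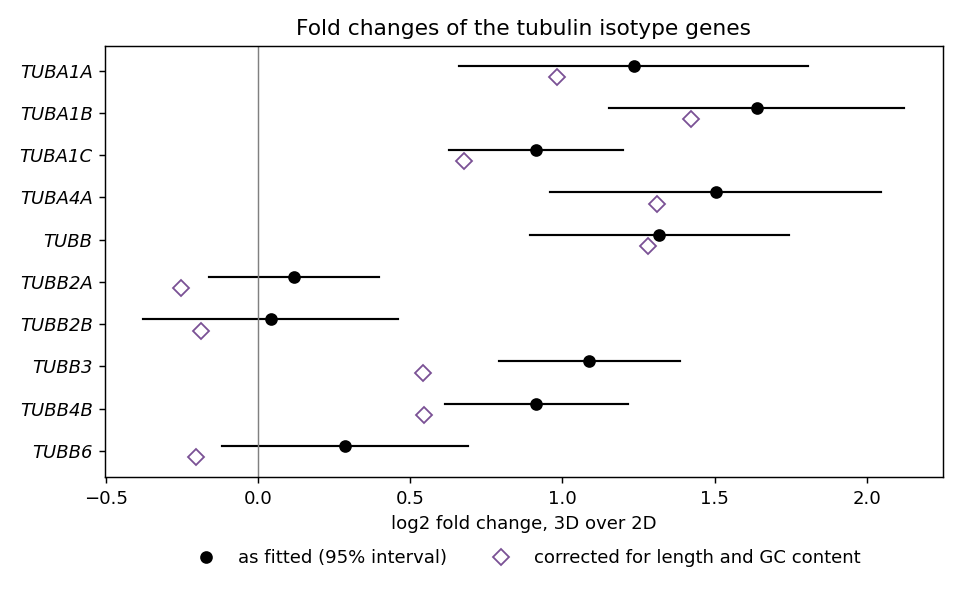
Log2 fold change (3D over 2D) of each member with its 95% interval (black, edgeR fit), and the value with transcript length and GC content corrected (open diamonds). The intervals of TUBB2A, TUBB2B and TUBB6 cross 0 and their corrected values lie at −0.25, −0.19 and −0.20, while the 7 other members stay above 0 in both.

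The unequal rise shifted the make-up of each class. Shares were computed per library from counts per kilobase of transcript (the median over the gene's protein-coding transcripts in the GENCODE basic set), within the 4 alpha and within the 6 beta members. The correction of each library for length and GC content was not applied to them. TUBA1B made up 71.7%, 68.3% and 67.0% of the alpha members in 3D, against 57.0%, 51.8% and 61.9% in 2D. TUBA1C made up 26.9%, 30.0% and 31.6% in 3D, against 41.2%, 46.9% and 36.6% in 2D. The groups did not overlap for either gene, and together they held nearly all of the class, so a gain of the larger is a loss of the smaller. With the principal transcript, of 3001 bases against a median of 1385, TUBA1C averaged 16.2% ± 1.57 in 3D and 24.8% ± 3.97 in 2D (SD, n = 3 each). TUBA1A took 0.978% to 1.39% in 3D and 1.03% to 1.45% in 2D. TUBA4A took 0.348% to 0.459% in 3D and 0.320% to 0.383% in 2D. The shares of these low alpha members overlapped between the cultures.

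Among beta members TUBB made up 50.4%, 51.6% and 51.7% in 3D, against 44.4%, 37.0% and 47.6% in 2D. Its 3D shares lay within a narrow band above the scattered 2D values. Without correction for length and GC content TUBB3 kept its place, with 21.4%, 19.5% and 21.1% in 3D, against 19.6%, 22.6% and 19.9% in 2D. With that correction its log2 fold change was 0.54, beside 0.54 for TUBB4B and 1.28 for TUBB, and corrected shares were not computed. Since the median transcript length of TUBB3 is only 819.5 bases, pulled down by short models, its share is 10.7% ± 0.626 in 3D and 10.9% ± 1.06 in 2D (SD, n = 3 each) with the principal transcript of 1769 bases instead. TUBB4B was lower in share though higher in level, at 22.5%, 23.5% and 21.2% in 3D, against 24.5%, 27.7% and 24.0% in 2D. The isotypes that did not rise lost share. TUBB2A averaged 2.79% ± 0.515 in 3D and 5.54% ± 1.03 in 2D, and TUBB6 2.15% ± 0.426 in 3D and 3.86% ± 0.926 in 2D (SD, n = 3 each), without overlap for either. With its principal transcript of 2064 bases, against a median of 902.5, TUBB6 averaged 1.06% ± 0.217 in 3D and 1.92% ± 0.489 in 2D. TUBB2B made up 0.610% to 0.919% in 3D and 1.23% to 1.77% in 2D. The two-sided exact permutation test gave p = 0.1, the smallest that 3 against 3 libraries allow, for 7 of the 10 shares (2 higher, 5 lower in 3D), so no share could pass 0.05. The same number of shares did not overlap with counts undivided, with the longest or with the principal transcript. Shares of a class sum to 100%, so these are not independent measures.

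**Figure D3:**
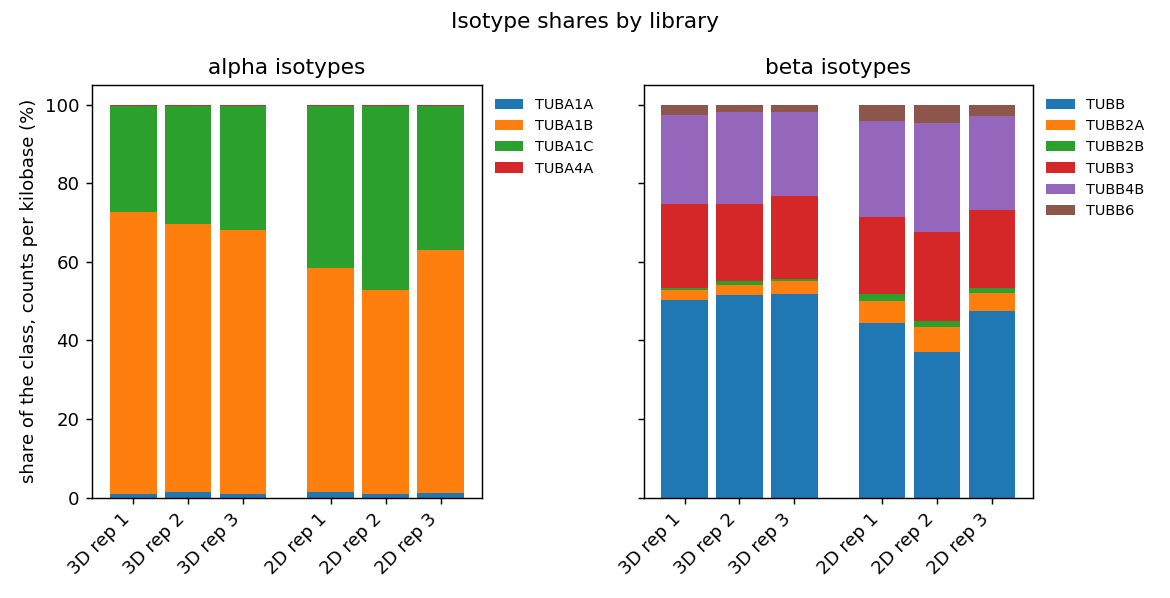
Share of each isotype in the counts per kilobase of its class, for each 3D library (left bars) and 2D library (right bars), alpha members in the left panel and beta members in the right. TUBA1B holds 67.0% to 71.7% of alpha in 3D and 51.8% to 61.9% in 2D, and TUBB 50.4% to 51.7% of beta in 3D and 37.0% to 47.6% in 2D.

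Alpha and beta chains are used in equal numbers in the dimer. The summed alpha members per kilobase stood at 0.739, 0.798 and 0.751 of the summed beta members in 3D, against 0.648, 0.549 and 0.651 in 2D. All 3D libraries were closer to equality than any 2D library, with a difference of 0.31 on the log2 scale. The level of this ratio depends on the transcript lengths used, with a log2 difference of 0.26 from counts undivided and 0.42 with the longest transcripts.

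Ordered by level per kilobase with the principal transcripts, TUBB (607 ± 32.2 CPM per kilobase) and TUBA1B (606 ± 56.9) headed the 3D list and their libraries overlapped. In 2D the same genes stood at 243 ± 71.7 for TUBB and 195 ± 65.5 for TUBA1B, also overlapping (SD, n = 3 each). TUBB4B followed, with 259 ± 25.9 CPM per kilobase in 3D and 137 ± 17.8 in 2D. TUBA1C and TUBB3 came next and overlapped, at 119 ± 6.92 and 110.2 ± 10.2 in 3D and 63.3 ± 8.11 and 51.8 ± 7.52 in 2D. TUBB2A stood apart below them at 31.9 ± 3.88 in 3D and 29.4 ± 1.06 in 2D. TUBB6 had 10.9 ± 2.86 CPM per kilobase in 3D and 8.91 ± 0.715 in 2D, and TUBB2B had 8.24 ± 2.02 in 3D and 8.03 ± 0.937 in 2D. TUBA1A had 8.48 ± 2.08 in 3D and 3.61 ± 1.17 in 2D. TUBA4A was lowest, at 3.65 ± 0.759 in 3D and 1.28 ± 0.238 in 2D. In 3D the libraries of TUBA1A overlapped those of TUBB6 above it and TUBB2B below it, and in 2D TUBA1A lay below TUBB2B without overlap. This order depends on the lengths used. With the median lengths TUBA1B (606 CPM per kilobase) stood above TUBB (590) in 3D, and their libraries overlapped. TUBB4B (259), TUBA1C (258) and TUBB3 (238) then lay close together in 3D, each overlapping the next, and TUBB2A overlapped TUBB6.

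The 2D libraries differed among themselves. TUBA1A, TUBA1B, TUBA1C, TUBA4A and TUBB were all lowest in 2D replicate 2 and highest in 2D replicate 3, while TUBB3 and TUBB4B were lowest in 2D replicate 1. Proliferation markers did the same: the summed level of 8 of them was 1545, 1537 and 1334 CPM in 3D, against 708, 422 and 1060 CPM in 2D. PCNA was among the 5 of the 8 that rose, and 0 fell, beside 19.0% and 17.6% of all genes tested. MKI67, TOP2A and BUB1 were not called (edgeR adjusted p = 0.254, 0.139 and 0.200), and their libraries overlapped between the cultures. The part of the proliferation markers in the tubulin changes was not tested. Leaving out any single library kept the count at 7 members called higher and 0 lower, and so did leaving out 3D replicate 1 and 2D replicate 2 together. Without 2D replicate 3 the log2 fold change of TUBA1B was 1.91 and that of TUBB 1.56, the largest values of those runs.

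By Pearson correlation of log2 CPM over the 6 libraries, the genes most like TUBB among all tested were TUBA1B (r = 0.999), PRIM2 (0.999) and HELLS (0.998). Those most like TUBA1B were PSRC1 (0.999), TUBB (0.999) and RRM1 (0.998). The libraries fall into the 2 cultures, so the step between them raises these values, whatever the size of the rise. The genes named also varied within 2D as TUBB did, lowest in replicate 2 and highest in replicate 3. HELLS had 22.2, 16.9 and 34.6 CPM in the 2D libraries, and RRM1 had 34.3, 23.7 and 46.1 CPM. How much of each correlation came from the step and how much from the variation within 2D was not tested. PRIM2 rose by 0.83 on the log2 scale, beside 1.32 for TUBB. TUBB and TUBA1B lie on different chromosomes and encode different subunits, and each was among the closest of 15314 genes to the other.

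Another 13 rows of the table carry alpha or beta tubulin symbols, 7 of them pseudogenes, and together they held 1.99% of all alpha and beta tubulin counts. Of the 7 that could be tested 5 rose and 0 fell, beside 19.0% and 17.6% of all genes tested. The most abundant was TUBBP1, a processed pseudogene of TUBB, with 48.1 ± 11.2 CPM in 3D and 18.2 ± 5.84 CPM in 2D (SD, n = 3 each; edgeR adjusted p = 0.00160). Its counts amounted to 3.58%, 2.66% and 2.62% of those of TUBB in 3D, against 2.76%, 2.74% and 2.86% in 2D. TUBB1, the beta tubulin of platelets, had 11.9 ± 1.09 CPM in 3D and 3.83 ± 1.54 CPM in 2D (log2 1.63, edgeR adjusted p = 0.000938), and TUBBP5 (5.56 ± 1.36 CPM in 3D, 4.22 ± 0.843 CPM in 2D) did not pass the test (edgeR adjusted p = 0.267). Of 6 blood and macrophage markers 2 were in the table, CD68 and CD14, and their summed level was 23.9 to 44.5 CPM in 3D and 7.95 to 11.2 CPM in 2D, mostly CD68; its part in the TUBB1 value was not tested. Whether these counts are reads of the rows named or of near-identical members was not tested.

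Among the machinery around the dimer, 4 of 16 genes of the gamma tubulin ring complex and other tubulins rose and 3 fell, and the median over the list was 0.21 on the log2 scale. These shares lie near those over all genes tested (19.0% higher and 17.6% lower). MZT2B and MZT2A, near-identical small subunits of that complex, rose 2.61-fold and 2.59-fold (edgeR adjusted p = 4.57e-05 and 6.25e-05), and their log2 fold changes of 1.38 and 1.37 were 0.77 and 0.71 with length and GC content corrected. TUBG1, the gamma tubulin that nucleates microtubules, was chosen after its values were seen: it had 126, 118 and 129 CPM in 3D, against 56.7, 55.6 and 67.4 CPM in 2D (log2 1.05, edgeR adjusted p = 0.000149). AKNA, a microtubule organiser at the centrosome, fell to 15.5 ± 2.84 CPM in 3D, against 68.8 ± 6.75 CPM in 2D (adjusted p by edgeR = 1.89e-05). TUBE1, the epsilon tubulin of centrioles, fell to 10.2 ± 2.59 CPM in 3D, against 25.5 ± 0.605 CPM in 2D (adjusted p by edgeR = 0.000382).

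Of 16 chaperonin and prefoldin genes, which fold new tubulin chains, 4 rose and 0 fell, beside 19.0% and 17.6% of all genes tested. Their median was 0.22 on the log2 scale, and the largest log2 fold change was 0.65. PFDN1, a prefoldin subunit that hands new tubulin chains to the chaperonin, rose 1.57-fold (edgeR adjusted p = 0.00166). PFDN5, another subunit, rose by 0.48 on the log2 scale (edgeR adjusted p = 0.0165), but its call was lost with length and GC content corrected (log2 0.08) and when 3D replicate 3, 2D replicate 1 or 2D replicate 3 was left out (log2 0.37, 0.45 and 0.45). Without single libraries between 1 and 5 genes of this list were called higher, and 2 without 3D replicate 1 and 2D replicate 2 together.

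Of 12 genes for folding cofactors and autoregulation 1 rose and 3 fell, too few to set apart from the 19.0% and 17.6% over all genes tested. ARL2, a small GTPase that works with the cofactors in dimer assembly, had 43.6 ± 6.46 CPM in 3D and 22.7 ± 1.06 CPM in 2D (log2 0.94, edgeR adjusted p = 0.000592, and 0.40 corrected for length and GC content). TBCEL, a cofactor E-like protein that takes dimers apart, fell to 17.3 ± 3.34 CPM in 3D, against 36.3 ± 2.67 CPM in 2D (adjusted p by edgeR = 0.000551). SCAPER, which acts in the decay of tubulin messenger RNA downstream of TTC5, fell to 7.59 ± 1.79 CPM in 3D, against 13.3 ± 0.928 CPM in 2D (log2 −0.80, edgeR adjusted p = 0.00887). Corrected for length and GC content its log2 fold change was −0.47 (edgeR adjusted p = 0.0491). TTC5 itself, the reader of the nascent chain, had 15.5, 16.5 and 13.01 CPM in 3D, against 20.7, 18.6 and 18.7 CPM in 2D, and was not called (log2 −0.37, 95% interval −0.71 to −0.03, edgeR adjusted p = 0.0812).

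Of 18 tubulin modifying enzymes tested, 0 rose and 1 fell, beside 19.0% and 17.6% of all genes tested. The gene that fell, TTLL11, a polyglutamylase of tubulin tails, had 3.92 ± 0.940 CPM in 3D and 7.02 ± 1.23 CPM in 2D (adjusted p by edgeR = 0.0210), and it lost its call when 3D replicate 2, 2D replicate 1 or 2D replicate 2 was left out (log2 −0.66, −0.80 and −0.77). TTL, which puts the terminal tyrosine back on alpha tubulin, had 87.5 ± 4.25 CPM in 3D and 89.6 ± 2.80 CPM in 2D (log2 −0.03, edgeR adjusted p = 0.837). Its call depended on the processing: with length and GC content corrected it was higher in 3D, at a log2 fold change of 0.64 (edgeR adjusted p = 0.00150).

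Microtubule associated, plus end and destabilising proteins gave calls in both directions: 5 of 39 tested rose and 12 fell (median log2 fold change −0.05). Over all genes tested 19.0% rose and 17.6% fell. After correction for length and GC content 8 of the list rose and 9 fell. KIF2C, a kinesin that depolymerises microtubule ends in mitosis, rose 2.74-fold (edgeR adjusted p = 0.00226). STMN1, stathmin, which sequesters tubulin dimers, had 197, 194 and 189.6 CPM in 3D, against 99.3, 68.6 and 120 CPM in 2D (2.02-fold, edgeR adjusted p = 0.00132). MAP1LC3B, better known as the autophagosome protein LC3B, fell to 86.9 ± 19.5 CPM in 3D, against 234 ± 36.9 CPM in 2D (adjusted p by edgeR = 0.000247). MAP1B, a microtubule stabiliser first known from neurons, fell to 35.4 ± 6.05 CPM in 3D, against 86.3 ± 9.20 CPM in 2D (log2 −1.29, edgeR adjusted p = 0.000150, and −0.69 corrected for length and GC content). MAP4, the main microtubule associated protein outside neurons, had 185 ± 35.0 CPM in 3D and 175 ± 13.9 CPM in 2D and was not called (edgeR adjusted p = 0.694).

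**Figure D4:**
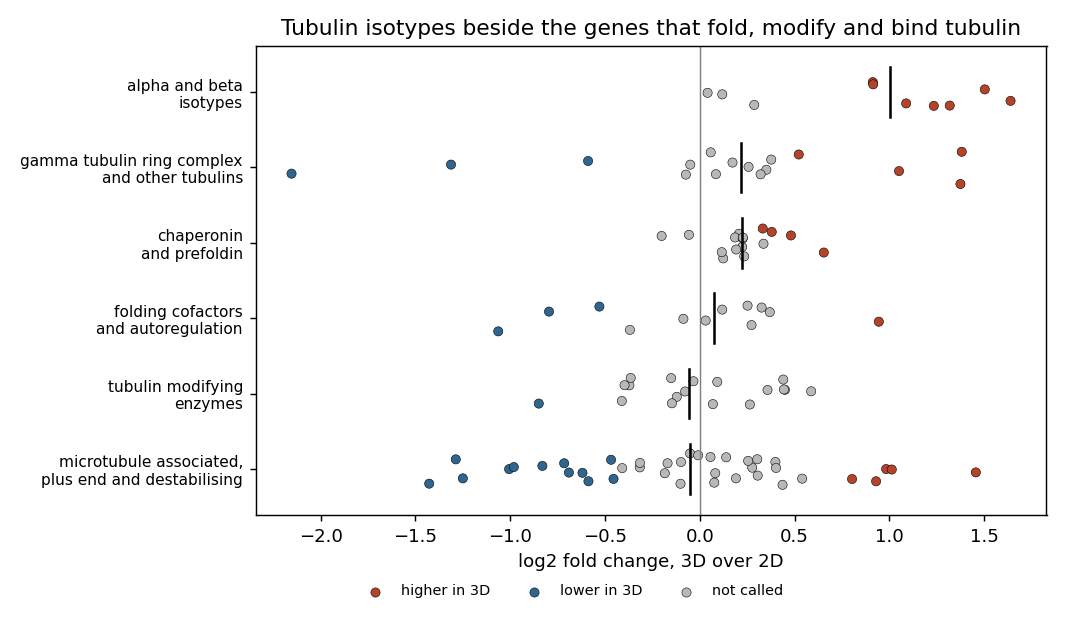
Log2 fold change (3D over 2D) of the 10 isotype genes and of the tested genes of 5 lists around them. Each point is a gene (red higher, blue lower, grey not called, edgeR) and the vertical bar is the median. The isotypes have a median of 1.00, beside medians between −0.06 and 0.22 for the other lists.

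Promoters are shown for TUBB, the most abundant member, and for TUBB4B and TUBA1C, the members whose windows held both CCAAT and TTTGAA. The motifs searched were CCAAT, the letters of the CCAAT box, TTTGAA, the core of an element found at many genes of the late cell cycle, and TATAAA, a form of the TATA box, each on both strands. For TUBB and TUBA1C not every start is shown. The other TUBB window held none of these motifs, and the other TUBA1C windows held both CCAAT and TTTGAA. The RefSeq sequences run from 250 bases before to 50 after a start on GRCh38.p14, 5′ to 3′ in gene direction, with the matches in capitals.
TUBB at chr6:30720102-30720401, plus strand: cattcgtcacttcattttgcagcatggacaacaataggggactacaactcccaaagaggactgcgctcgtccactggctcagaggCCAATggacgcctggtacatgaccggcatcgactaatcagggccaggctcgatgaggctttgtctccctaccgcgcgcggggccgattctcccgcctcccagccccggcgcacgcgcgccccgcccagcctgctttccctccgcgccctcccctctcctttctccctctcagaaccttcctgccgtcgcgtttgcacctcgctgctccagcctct
TUBB4B at chr9:137241037-137241336, plus strand: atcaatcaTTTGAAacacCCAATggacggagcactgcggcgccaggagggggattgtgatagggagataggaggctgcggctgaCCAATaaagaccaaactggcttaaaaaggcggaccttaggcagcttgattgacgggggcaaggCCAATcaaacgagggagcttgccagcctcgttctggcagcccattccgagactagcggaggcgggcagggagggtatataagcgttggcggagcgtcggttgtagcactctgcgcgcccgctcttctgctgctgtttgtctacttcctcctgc
TUBA1C at chr12:49264832-49265131, plus strand: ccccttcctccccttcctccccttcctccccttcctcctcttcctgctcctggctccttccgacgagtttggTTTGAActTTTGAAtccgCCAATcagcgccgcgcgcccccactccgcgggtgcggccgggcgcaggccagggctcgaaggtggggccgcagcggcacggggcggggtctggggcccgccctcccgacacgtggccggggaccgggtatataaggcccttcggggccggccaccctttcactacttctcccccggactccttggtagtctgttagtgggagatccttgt
CCAAT occurred at 1 or more starts of 7 of the 10 members, TUBA1A, TUBA1C, TUBB, TUBB2B, TUBB3, TUBB4B and TUBB6, and of 39.7% of all genes with a promoter in that table. TTTGAA occurred for TUBA1C and TUBB4B, and for 18.2% of all genes. TATAAA occurred for TUBB2A, and for 14.0% of all genes. Only these exact letters were searched, and the related letters TATATAA, in the windows shown for TUBB4B and TUBA1C, were not counted. TUBA1B and TUBA4A, which rose, held none of the 3 motifs in these windows, so the 7 members that rose shared none of them. A match is only a match of letters.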

How the data were processed

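RNA was sequenced from 6 libraries, 3 of HepG2 cells in 3D and 3 in 2D. The authors deposited estimated counts per gene, unrounded and not normalized. The submitters' processing notes name STAR 2.4.1d, Partek and hg38; how strand and reads matching several genes were treated is not given in the sources used here. Counts were rounded to whole numbers, scaled by TMM and tested over 15314 genes with edgeR 4.0.16 (quasi-likelihood, R 4.3.3) with Benjamini-Hochberg adjustment and a threshold of 0.05. CPM values are TMM scaled. The test was checked on simulated data. Shares used counts per kilobase with GENCODE 29 lengths and the exact permutation test. Alternatives were DESeq2 1.42.0, limma-voom (limma 3.58.1), other scalings and filters, a replicate block, a correction for length and GC content (loess span 0.5), other transcript lengths and leaving out libraries. The longest-transcript correction, the principal lengths and leaving out a pair of libraries were chosen after seeing the data. Members and gene lists were chosen with earlier results of these data known. For each list around the dimer, up to 2 called genes in each direction were named, those with the largest changes at 5 CPM or more in the higher group, plus TTC5, TTL, STMN1 and MAP4 in any case. The 3 most abundant other tubulin rows, and the 3 genes most like the most abundant and the most changed member, were also named. Intervals and floors cover counting error or the spread between libraries only.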

Additional observations from a re-analysis of the deposited data

How the results depend on the processing

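With DESeq2, limma-voom, the other scalings and filters, and every single library left out, 7 members were called higher and 0 lower, with 2803 to 3074 genes called higher where all libraries were kept. With the 3 fits corrected for length and GC content 2310 to 2435 genes were called higher. Leaving out single libraries gave 1938 to 2817 genes called higher and 1828 to 2792 called lower, fewest without 2D replicate 1. The replicate numbers gave no sign of pairing (correlations of deviations 0.053, −0.00924 and −0.0783 between libraries of the same number). Between libraries of different numbers the correlations were −0.0812 to 0.103. With so few libraries this cannot exclude that samples were paired. With the replicate number as a block 2747 genes were called higher and 2611 lower, with 7 and 0 members. With the block and the correction for length and GC content 6 members were called higher, and TUBA1A was not (log2 0.98, edgeR adjusted p = 0.0528); the call of SCAPER was lost too (log2 −0.48, edgeR adjusted p = 0.0675), and 8 microtubule associated and related genes rose and 7 fell. Under the length and GC correction, that with the block, and that with the longest transcripts, log2 fold changes turned to −0.25, −0.26 and −0.32 for TUBB2A, −0.19, −0.22 and −0.28 for TUBB2B, −0.20, −0.22 and −0.091 for TUBB6, and 0.64, 0.63 and 0.58 for TTL. Without single libraries TUBB2B ranged over −0.18 to 0.17 and MAP4 over −0.07 to 0.21, and MAP4 was −0.14 without 3D replicate 1 and 2D replicate 2. MAP4 was called higher with the longest-transcript correction (log2 0.41, edgeR adjusted p = 0.0259). The TUBA4A share difference was −0.0034 percentage points with the longest and −0.0040 with the principal transcripts, and −0.0086 to 0.0467 without single libraries, and that of TUBB3 ranged over −0.58 to 0.92. The alpha to beta difference was 0.42 with the longest transcripts and 0.23 to 0.35 without single libraries. Genes called higher among the modifying enzymes numbered 3 with length and GC content corrected, and among the folding cofactors 3 with upper-quartile scaling. The cause was not tested for any of these.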
